A study of Homo sapiens with 12 samples.

Results

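The kinetochore is the protein assembly on each centromere that holds a chromosome to spindle microtubules, and the spindle checkpoint is the signalling system that delays anaphase until every kinetochore is attached. The genes described here are 40 components of these machines, taken by symbol, out of 44147 gene features in the files, and all 40 were listed in every library and passed the filter on low counts. They were measured by RNA sequencing in CCRF-CEM cells, a long-established leukemia line of T lymphoblast origin. Exonic and intronic reads of each gene were used as separate readouts.

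The study compared wild-type CCRF-CEM cells, called parent here and positive for SLFN11, with CCRF-CEM cells in which SLFN11 was knocked out; this Schlafen family protein is recruited to stalled replication forks. Cells of each line received prexasertib, which inhibits the kinase CHK1, at 100 nM for 6 h, or DMSO alone, which makes 4 groups of 3 libraries and 12 in all. The labels do not say whether the knockout is 1 clone or a pool, nor whether replicates are separate cultures, and the p-values therefore rest on a spread between libraries that may be technical.

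The labels and the files conflict over treatment, and every direction below depends on this. The title of each of the 12 records names a library whose file sits with the opposite treatment in the same line. Groups were taken from the record to which each file is attached, so "labelled prexasertib" and "labelled DMSO" name those records. If the library names hold instead, the signs of all treatment differences and of the interaction turn, and the comparisons between lines swap labels.

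Kinetochores are built in layers. CENPA nucleosomes and the constitutive centromere-associated network (CCAN) form the inner layer. The KNL1, MIS12 and NDC80 complexes form the outer layer that binds microtubules, and the checkpoint kinases and MAD proteins act on it. Many of these genes are transcribed mainly in G2 and mitosis, and a cell cycle homology region (CHR) near the start site, bound by the DREAM and MYB-MuvB complexes, is a known part of that control. In bulk RNA, fewer cells in G2 and mitosis and less RNA per cell cannot be told apart.

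The 4 genes of the NDC80 complex gave different values although their proteins form 1 complex, so their promoters are shown, with those of CENPA and CDCA8, which were among the genes with the largest differences. Each sequence runs from 100 bases before the start site to 30 bases after it, 5′ to 3′ on the gene's strand, from RefSeq on GRCh38.p14. Capitals mark the CHR element, searched as TTTGAA or TTCGAA on both strands.
NDC80: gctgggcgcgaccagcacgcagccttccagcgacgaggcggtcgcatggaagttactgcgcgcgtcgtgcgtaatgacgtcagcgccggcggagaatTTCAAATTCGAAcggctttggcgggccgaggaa
NUF2: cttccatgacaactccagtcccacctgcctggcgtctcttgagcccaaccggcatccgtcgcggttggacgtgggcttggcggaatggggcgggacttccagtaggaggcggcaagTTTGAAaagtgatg
SPC25: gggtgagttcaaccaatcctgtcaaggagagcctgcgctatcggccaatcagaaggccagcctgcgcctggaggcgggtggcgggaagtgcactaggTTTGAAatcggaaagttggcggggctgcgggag
SPC24: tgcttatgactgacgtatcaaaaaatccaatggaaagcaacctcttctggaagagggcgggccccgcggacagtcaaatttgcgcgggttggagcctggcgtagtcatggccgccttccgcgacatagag
CENPA: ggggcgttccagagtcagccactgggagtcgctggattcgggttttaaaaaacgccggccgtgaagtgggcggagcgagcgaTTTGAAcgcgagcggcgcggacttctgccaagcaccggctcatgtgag
CDCA8: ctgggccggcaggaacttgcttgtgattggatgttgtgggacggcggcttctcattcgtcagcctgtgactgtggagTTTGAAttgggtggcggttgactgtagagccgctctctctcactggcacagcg
These windows lie on GRCh38.p14 at chr18:2571457-2571586 (plus strand), chr1:163321854-163321983 (plus), chr2:168890401-168890530 (minus), chr19:11155753-11155882 (minus), chr2:26785956-26786085 (plus) and chr1:37692416-37692545 (plus), in the order shown. The element started at base -18 from the start site in CENPA, at -23 in CDCA8, at 17 in NUF2 and at -3 in SPC25, and NDC80 held adjoining matches at -3 and 4. The SPC24 window held no match in its full 300 bases. SGOL2 and AURKB, which were at least 2-fold lower in parent cells and are not shown, held none either. CENPW and ZWINT, also not shown, held a match and were not called.

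Most of the 40 genes were lower in the libraries labelled prexasertib, in both lines, and none was called higher. In parent cells 30 of 40 were called lower and 0 higher by edgeR's quasi-likelihood test (Benjamini-Hochberg adjusted p of at most 0.05), where 18.2% of all 23045 genes tested were called lower and 18.2% higher. The median log2 fold change of the 40 was -0.50, against 0.04 over all genes tested, and values ran from -1.86 to 0.20. In knockout cells 24 of 40 were called lower and 0 higher, where 6.83% of all genes were lower and 6.11% higher, with a median of -0.29 against -0.00. All 24 were also lower in parent cells, against 4.73% of all genes that were called lower in both lines. A further 6 were called in parent cells and not in knockout cells (CENPM, CENPN, CENPQ, MIS12, SKA3 and MAD1L1), and 10 were called in neither.

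Differences of at least 2-fold were found for 8 genes in parent cells and for 2 in knockout cells, where 3.35% and 0.746% of all genes were lower by that much. The 8 were NDC80, CENPA, SGOL2, CDCA8, CENPL, SKA1, AURKB and BIRC5, and the 2 were CENPA and CDCA8. The groups did not overlap, with the libraries labelled prexasertib the lower, for 32 genes in parent cells and 26 in knockout cells, where 21.8% and 17.4% of all genes did so. The summed exonic reads of the 40 genes were 0.585 to 0.619% of each parent library labelled DMSO and 0.345 to 0.362% of each labelled prexasertib. In knockout cells they were 0.536 to 0.540% and 0.381 to 0.397%.

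**Figure D1:**
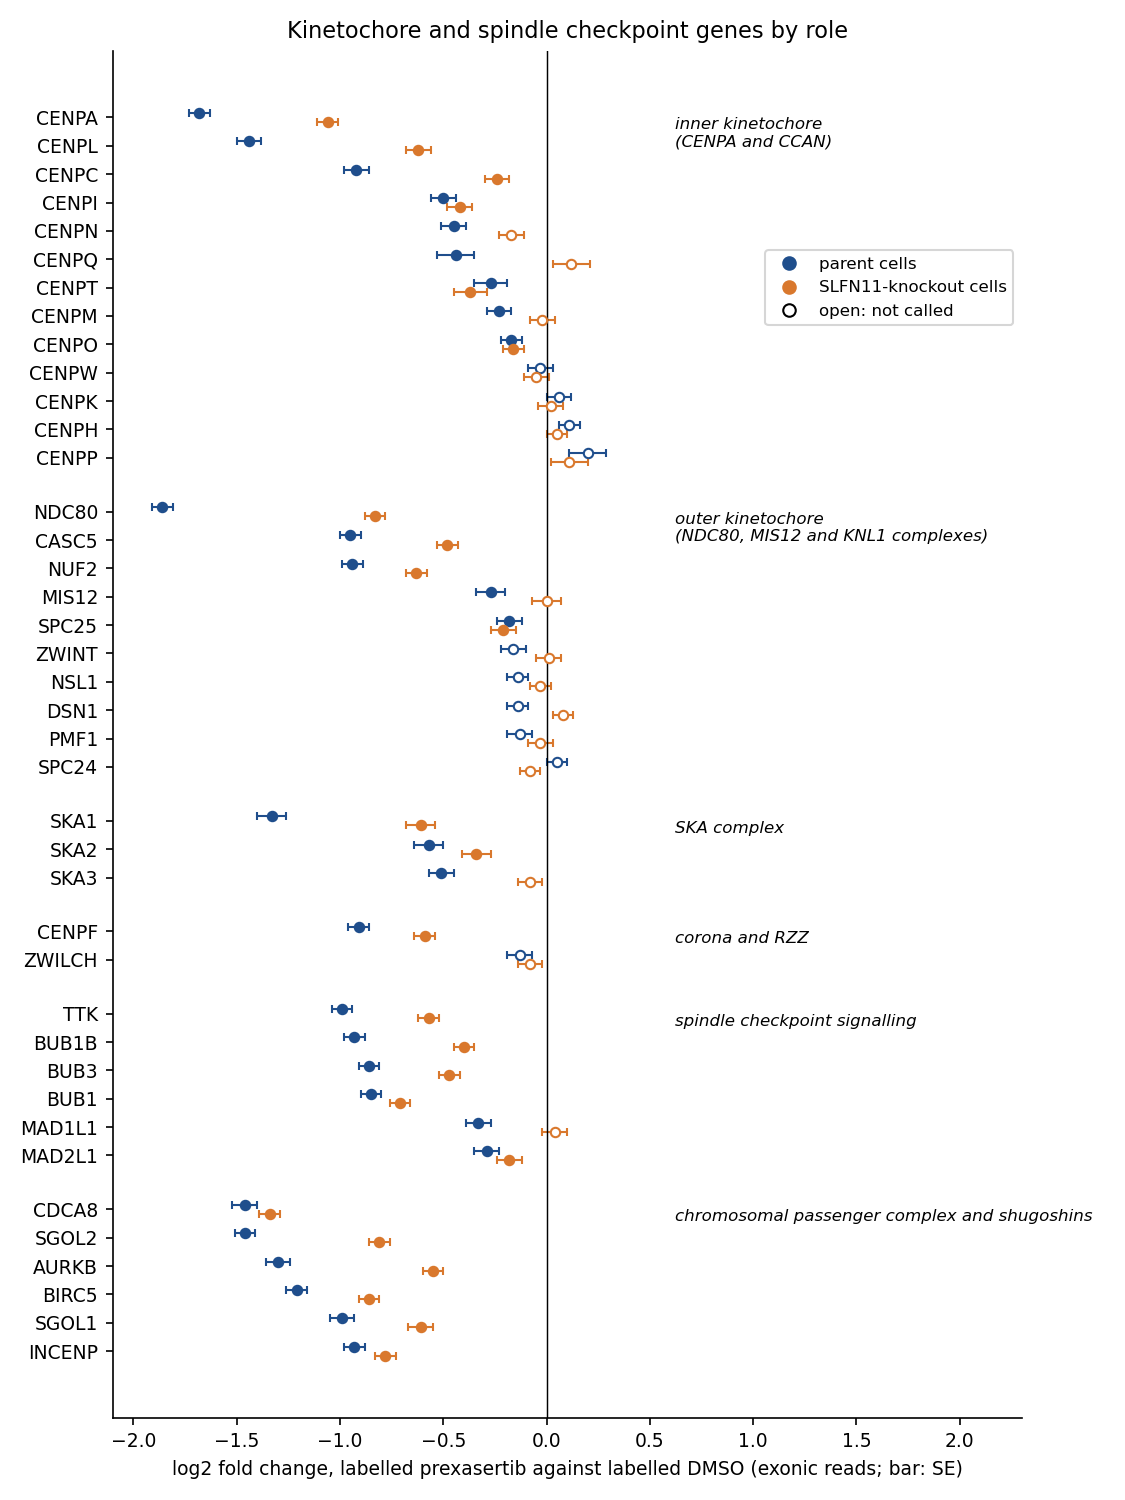
Log2 fold change of the 40 genes between labelled prexasertib and labelled DMSO (x axis, exonic reads, bars are standard errors), grouped by role, in parent cells (blue) and SLFN11-knockout cells (orange), with open points for genes not called. All 6 genes of the chromosomal passenger complex and shugoshins lay at -0.93 or lower in parent cells, while CENPW, CENPK, CENPH and CENPP lay near 0 in both lines.

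In the inner kinetochore 9 of 13 genes were lower in parent cells and 6 of 13 in knockout cells. CENPA (chr2:26987157-27023935, hg19), the histone H3 variant that marks the centromere, had 112, 114 and 114 CPM (read counts scaled to library size) in the parent libraries labelled DMSO and 33.9, 36.4 and 35.9 in those labelled prexasertib. Knockout cells had 74.7, 72.0 and 71.6 CPM and 34.0, 34.0 and 36.7 CPM. The knockout libraries labelled DMSO thus lay between the parent groups, and the libraries labelled prexasertib of both lines overlapped. The log2 fold change was -1.68 ± 0.05 (SE) in parent cells (edgeR, adjusted p = 9.9e-19) and -1.06 ± 0.05 in knockout cells (adjusted p = 4.5e-14).

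CENPL (chr1:173768688-173793858), which with CENPN forms a CCAN arm that contacts the CENPA nucleosome, had 93.7, 97.5 and 101 CPM in parent cells labelled DMSO against 31.9, 39.0 and 36.8 labelled prexasertib. In knockout cells it had 51.3, 48.9 and 52.3 against 32.2, 31.7 and 35.3. Its log2 fold change was -1.44 ± 0.06 in parent cells and -0.62 ± 0.06 in knockout cells. CENPC, which bridges CENPA to the outer layer, had 101, 91.8 and 93.7 against 48.2, 52.8 and 50.3 CPM in parent cells, where the groups stood well apart. In knockout cells its values of 66.0, 63.6 and 63.7 against 54.3, 50.3 and 58.7 were closer (log2 fold change -0.24 ± 0.06, edgeR adjusted p = 0.0055), and this call was lost without the knockout library labelled prexasertib replicate 2 (adjusted p = 0.053).

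Other CCAN genes moved little. CENPQ, at 15.3, 12.9 and 13.9 against 10.996, 10.3 and 9.69 CPM in parent cells, was lower there (-0.44 ± 0.09, edgeR adjusted p = 0.0002) but not in knockout cells, where it had 12.1, 11.17 and 12.8 against 12.1, 12.7 and 14.4. CENPI, CENPN, CENPT, CENPM and CENPO were called lower in parent cells with log2 fold changes from -0.50 to -0.17. With exonic and intronic reads added together, CENPT turned positive in parent cells and was called in neither line, and CENPM was not called. Of these, CENPM lost its call without parent labelled DMSO replicate 3 (edgeR adjusted p = 0.059), and in knockout cells CENPO lost its call under 5 of the 6 leave-outs of a knockout library (adjusted p 0.051 to 0.13). All 3568 exonic bases of CENPN also lie in other gene models, and CENPO, CENPP and CENPT have 40.7%, 23.3% and 23.8% of theirs outside other genes, so reads of these 4 cannot be separated fully from their neighbours.

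CENPH, CENPK, CENPP and CENPW, the remaining CCAN subunits, were called in neither line. CENPH had 49.96, 48.6 and 47.9 against 48.8, 55.8 and 53.5 CPM in parent cells, and 59.3, 61.5 and 62.7 against 62.4, 62.2 and 65.6 in knockout cells. CENPW had 33.7, 31.6 and 34.3 against 30.01, 35.3 and 32.4 CPM in parent cells, and 38.6, 40.2 and 43.3 against 38.8, 39.3 and 39.9 in knockout cells. In both genes the treatments of a line overlapped, while the lines stood apart. CENPK had 36.8, 33.2 and 33.9 against 37.2, 35.6 and 35.9 CPM in parent cells, and 41.7, 40.3 and 38.9 against 39.0, 39.3 and 44.0 in knockout cells. CENPP, the least abundant of the 40 per length, had 10.4, 9.01 and 11.04 against 12.02, 11.6 and 11.3 CPM in parent cells, and 9.58, 9.05 and 11.16 against 9.76, 11.01 and 11.4 in knockout cells. Their log2 fold changes lay between -0.05 and 0.20.

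In the outer kinetochore 5 of 10 genes were lower in parent cells and 4 of 10 in knockout cells. NDC80 (chr18:2571510-2616634, hg19), whose head domain binds the microtubule, showed the largest difference of the 40 in parent cells. It had 252, 239 and 260 CPM in the libraries labelled DMSO and 65.2, 70.5 and 71.2 in those labelled prexasertib, 3.63-fold lower (log2 fold change -1.86 ± 0.05, edgeR adjusted p = 1e-19). In knockout cells it had 140, 136 and 137 against 77.2, 76.7 and 79.4 CPM, 1.77-fold lower (-0.83 ± 0.05, adjusted p = 3.3e-12). The knockout libraries lay below the parent ones under labelled DMSO and above them under labelled prexasertib, without overlap.

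The partners of NDC80 differed from it and from each other. NUF2, the other microtubule-facing subunit, had 138, 122 and 126 against 65.1, 70.6 and 66.1 CPM in parent cells (log2 fold change -0.94 ± 0.05) and 122, 119 and 118 against 79.1, 74.5 and 79.1 in knockout cells (-0.63 ± 0.05). SPC25, which with SPC24 docks the complex on the kinetochore, was lower by little, at -0.18 ± 0.06 and -0.21 ± 0.06. Its parent call was lost without parent labelled prexasertib replicate 3 (edgeR adjusted p = 0.073), and its knockout call under 4 leave-outs of a knockout library (0.058 to 0.085). SPC24 (chr19:11242196-11266484) had 94.1, 97.5 and 97.5 against 94.5, 102 and 103 CPM in parent cells, and 116, 118 and 117 against 113, 112 and 108 in knockout cells, and was called in neither. Its 95% interval in parent cells, -0.05 to 0.14 on the log2 scale, did not reach the value of SPC25.

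The make-up of the complex's mRNA therefore differed between the labels. NDC80 made up 45.2% ± 1.1 (SD, n = 3) of the summed TPM (transcript abundance per length) of the 4 genes in parent cells labelled DMSO and 22.6% ± 0.43 in those labelled prexasertib. SPC24 went from 22.1% ± 0.9 to 41.4% ± 0.67. In knockout cells NDC80 had 30% ± 0.28 and 22.9% ± 0.42, and SPC24 32.3% ± 0.55 and 41.3% ± 0.9. The shares of the 2 lines lay within 1 SD of each other under labelled prexasertib for these genes and well apart under labelled DMSO. TPM is per length, which allows the genes to be compared.

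**Figure D2:**
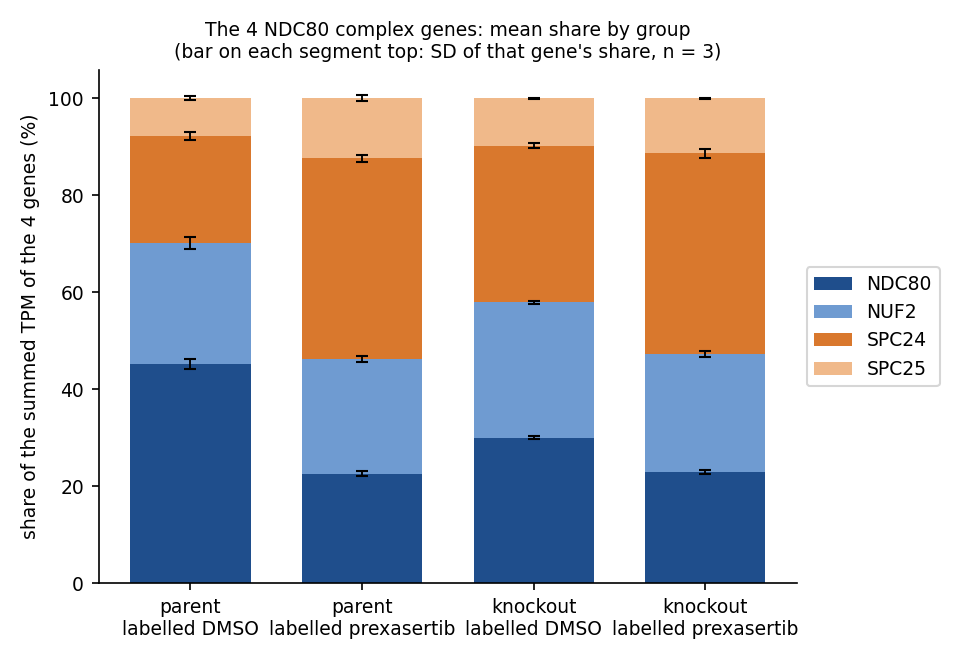
Share of each NDC80 complex gene (segments) in the summed TPM of the 4 genes (y axis, percent) in the 4 groups (x axis), as means of 3 libraries, with the SD of each gene's share at the top of its segment. The NDC80 segment is largest in parent cells labelled DMSO, at 45.2%, and near 23% in both groups labelled prexasertib.

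CASC5, the files' symbol for the KNL1 scaffold that recruits the BUB proteins, had 473, 428 and 456 against 223, 244 and 233 CPM in parent cells (-0.95 ± 0.05) and 359, 358 and 355 against 250, 247 and 269 in knockout cells (-0.48 ± 0.05). The 4 genes of the MIS12 complex, the hub between the inner and outer layers, moved little. MIS12 was lower in parent cells (-0.27 ± 0.07, edgeR adjusted p = 0.0027) at 49.1, 50.8 and 51.4 against 36.7, 45.8 and 43.1 CPM. DSN1 had 61.8, 59.4 and 60.9 against 50.6, 58.9 and 56.4 CPM in parent cells, and 58.6, 57.0 and 58.7 against 60.6, 61.2 and 62.0 in knockout cells. NSL1 had 48.6, 47.5 and 50.2 against 42.7, 44.0 and 46.5, and 51.3, 48.4 and 49.9 against 46.4, 48.0 and 51.7. PMF1, with no exonic base outside other gene models, had 46.0, 50.7 and 50.3 against 40.3, 46.0 and 47.7, and 57.0, 56.0 and 57.6 against 57.7, 55.7 and 53.3. These 3 were called in neither line, with log2 fold changes from -0.14 to 0.08. ZWINT, which ties KNL1 to the corona, was also called in neither, at 111, 119 and 122 against 91.0, 111 and 114 CPM in parent cells and 117, 115 and 120 against 118, 118 and 119 in knockout cells.

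The SKA complex, which stabilises the grip on microtubules, was lower in 3 of 3 genes in parent cells and 2 of 3 in knockout cells. SKA1 (chr18:47901365-47920543) had 43.4, 43.2 and 43.0 against 15.7, 19.7 and 15.99 CPM in parent cells, and 25.0, 22.6 and 25.1 against 15.9, 15.6 and 16.1 in knockout cells. It was lower by 1.33 ± 0.07 and 0.61 ± 0.07 on the log2 scale, and its libraries labelled prexasertib overlapped between the lines. SKA2 was lower by 0.57 and 0.34 and SKA3 by 0.51 and 0.08, the last not called. SKA2 has 11.7% of its exonic bases outside other genes.

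Of the corona genes, CENPF (chr1:214776538-214837931), a large microtubule-binding protein, was the most heavily read of the 40, with 29222 to 85065 exonic reads per library. It had 1203, 1137 and 1178 against 620, 633 and 620 CPM in parent cells, and 1084, 1060 and 1058 against 698, 692 and 735 in knockout cells (log2 fold changes -0.91 ± 0.05 and -0.59 ± 0.05). ZWILCH, a subunit of the ROD-ZW10-ZWILCH complex, was called in neither line, at 62.7, 62.3 and 64.4 against 52.7, 63.7 and 57.2 CPM in parent cells and 66.8, 62.5 and 66.2 against 62.0, 58.4 and 64.4 in knockout cells, with groups that overlapped in both lines. It has 25.9% of its exonic bases outside other genes.

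The checkpoint signalling genes were lower in 6 of 6 cases in parent cells (median log2 fold change -0.86) and 5 of 6 in knockout cells (-0.43). TTK, the kinase that starts checkpoint signalling, had 250, 229 and 242 against 115, 124 and 123 CPM in parent cells and 211, 207 and 212 against 142, 133 and 149 in knockout cells. BUB1B (chr15:40453224-40513337), which encodes the BUBR1 arm of the inhibitor of anaphase, had 298, 281 and 288 against 142, 161 and 152 CPM in parent cells and 242, 236 and 238 against 179, 177 and 186 in knockout cells. In both genes all 4 groups stood apart, in the order parent labelled DMSO, knockout labelled DMSO, knockout labelled prexasertib, parent labelled prexasertib. The log2 fold changes were -0.99 ± 0.05 and -0.57 ± 0.05 for TTK and -0.93 ± 0.05 and -0.40 ± 0.05 for BUB1B. BUB1 and BUB3, its partners on KNL1, were lower by 0.85 and 0.86 in parent cells and by 0.71 and 0.47 in knockout cells.

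The MAD genes differed less. MAD2L1 encodes MAD2, a subunit of the anaphase inhibitor, and MAD1L1 encodes MAD1, which recruits MAD2 to kinetochores. MAD2L1 had 155, 142 and 145 against 110, 130 and 124 CPM in parent cells (-0.29 ± 0.06, edgeR adjusted p = 0.00021) and 166, 159 and 166 against 145, 140 and 150 in knockout cells (-0.18 ± 0.06, adjusted p = 0.038). The knockout call was lost under 5 of the 6 leave-outs of a knockout library (adjusted p 0.055 to 0.15). MAD1L1 had 35.6, 39.3 and 38.8 against 29.2, 29.6 and 31.6 CPM in parent cells (-0.33 ± 0.06) and was not called in knockout cells (0.04 ± 0.06). With exonic and intronic reads added together, its parent difference turned positive and was not called.

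The chromosomal passenger complex corrects wrong attachments, and the shugoshins protect cohesion at the centromere. All 6 of these genes were lower in both lines, and their median of -1.25 in parent cells and -0.79 in knockout cells was the lowest of the 6 role groups in each line. CDCA8 (chr1:38158090-38175391), which encodes borealin, had 249, 267 and 263 against 86.3, 96.2 and 101 CPM in parent cells and 224, 231 and 225 against 91.8, 90.1 and 87.2 in knockout cells. AURKB (chr17:8108056-8113918), the kinase of the complex, had 252, 283 and 279 against 103, 110 and 117 CPM in parent cells and 177, 173 and 177 against 120, 124 and 116 in knockout cells. The log2 fold changes of CDCA8 were alike in the lines, -1.46 ± 0.06 and -1.34 ± 0.05, while those of AURKB were -1.30 ± 0.06 and -0.55 ± 0.05.

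BIRC5, the survivin subunit, had 334, 345 and 350 against 135, 157 and 154 CPM in parent cells and 251, 247 and 260 against 141, 139 and 138 in knockout cells (-1.21 ± 0.05 and -0.86 ± 0.05). An overlapping gene model covers most of its exons, with 30.7% outside it. SGOL2 (chr2:201374731-201448505) had 185, 172 and 182 against 67.1, 64.4 and 63.7 CPM in parent cells and 122, 116 and 116 against 67.2, 64.5 and 70.7 in knockout cells (-1.46 ± 0.05 and -0.81 ± 0.05). INCENP, the scaffold, was lower by 0.93 and 0.78, and SGOL1 by 0.99 and 0.61. The libraries labelled prexasertib of the lines overlapped for SGOL2 and BIRC5.

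**Figure D3:**
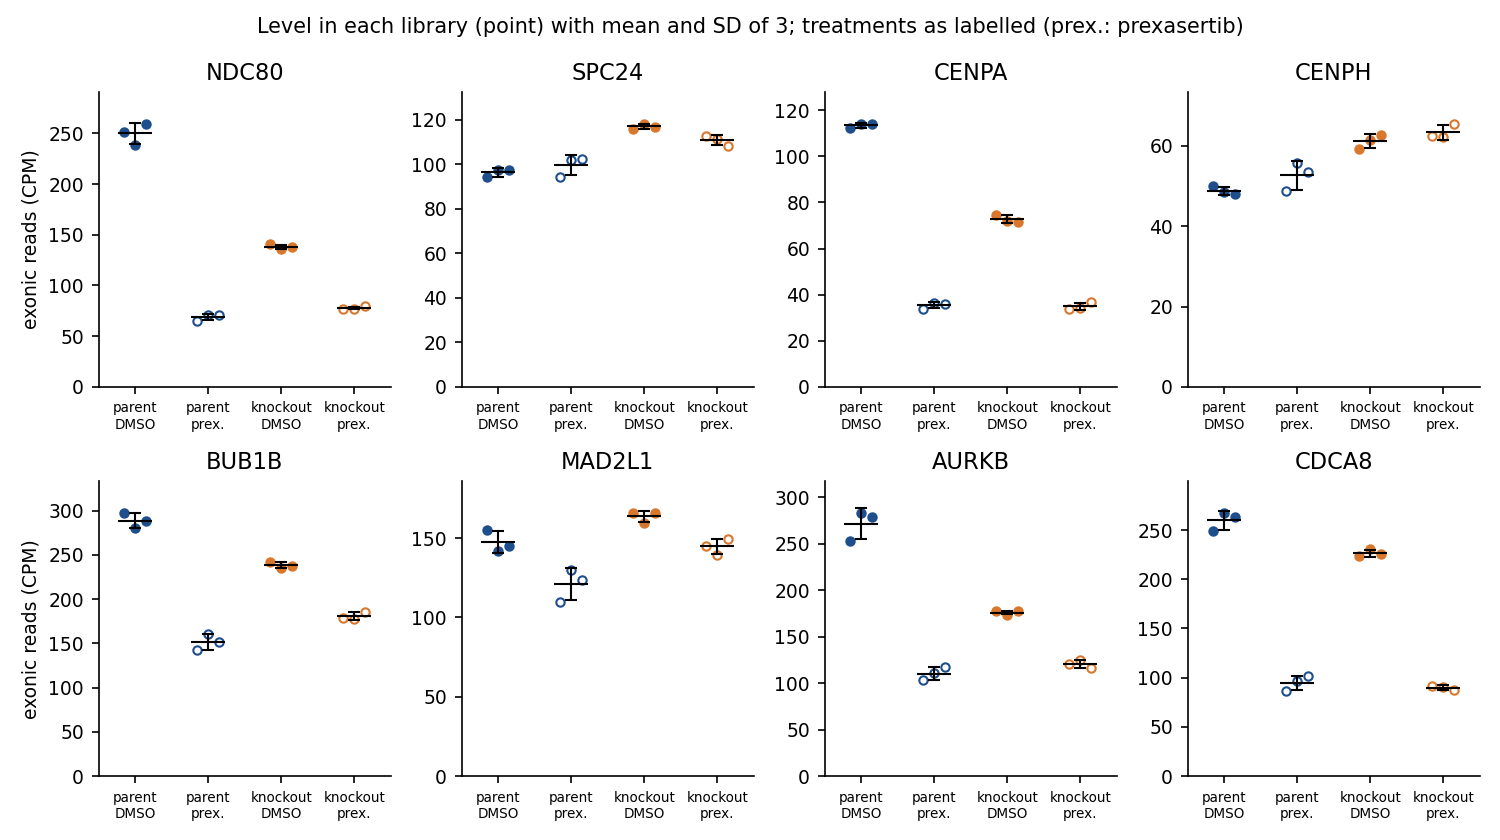
CPM of exonic reads (y axis, from 0) in each of the 12 libraries for 8 of the genes, with the mean and SD of each group of 3 as black bars, parent cells in blue and knockout cells in orange, and open points for labelled prexasertib. CENPA differs between the lines under labelled DMSO and overlaps under labelled prexasertib. NDC80 is higher in parent cells under labelled DMSO and slightly lower there under labelled prexasertib, and SPC24 and CENPH separate the lines under both labels. CDCA8 is somewhat higher in parent cells under labelled DMSO, without overlap, and overlaps between the lines under labelled prexasertib.

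The interaction tests whether the difference between the labels is the same in the lines, and a value below 0 means that parent cells had the larger decrease. It was called below 0 for 19 of 40 genes and above 0 for none, where 9.53% of all genes were called below and 7.32% above, and its median was -0.25 against 0.03. On the authors' TPM the median was -0.12, against 0.08 over all genes. There CENPF, CENPN, CENPQ, MAD1L1, NUF2 and SGOL1 lost their calls (limma adjusted p 0.06 to 0.36) and SPC24 was called above 0 (0.25, 0.0037). With exonic and intronic reads added, MAD1L1 was at 0.33 and not called. The parent value was further below 0 than the knockout value in 33 of 40 genes. The share of all genes with the lower parent value was not computed, and their median interaction was the 0.03 given above. The largest interactions were those of NDC80 (-1.03 ± 0.07, edgeR adjusted p = 6.1e-11), CENPL (-0.82 ± 0.09), AURKB (-0.75 ± 0.08), SKA1 (-0.72 ± 0.10) and CENPC (-0.68 ± 0.08). Of the 19 genes, 15 were lower in both lines and 4 (CENPN, CENPQ, SKA3 and MAD1L1) were not called in knockout cells. CENPN lost its interaction call (-0.29, adjusted p = 0.032) without parent labelled DMSO replicate 3 (adjusted p = 0.096) or knockout labelled prexasertib replicate 1 (0.088).

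For other genes the interaction was not called. CDCA8 had an interaction of -0.12, with a 95% interval of -0.27 to 0.03, although its decreases were among the largest. That interval does not reach the -1.03 of NDC80, though the genes were not tested against each other. CENPI had an interaction of -0.08 (95% interval -0.23 to 0.08) with decreases of 0.50 and 0.42 in the lines. BUB1 and INCENP were likewise not called, at -0.14 and -0.15, but each was called below 0 in some fits that left out a library.

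**Figure D4:**
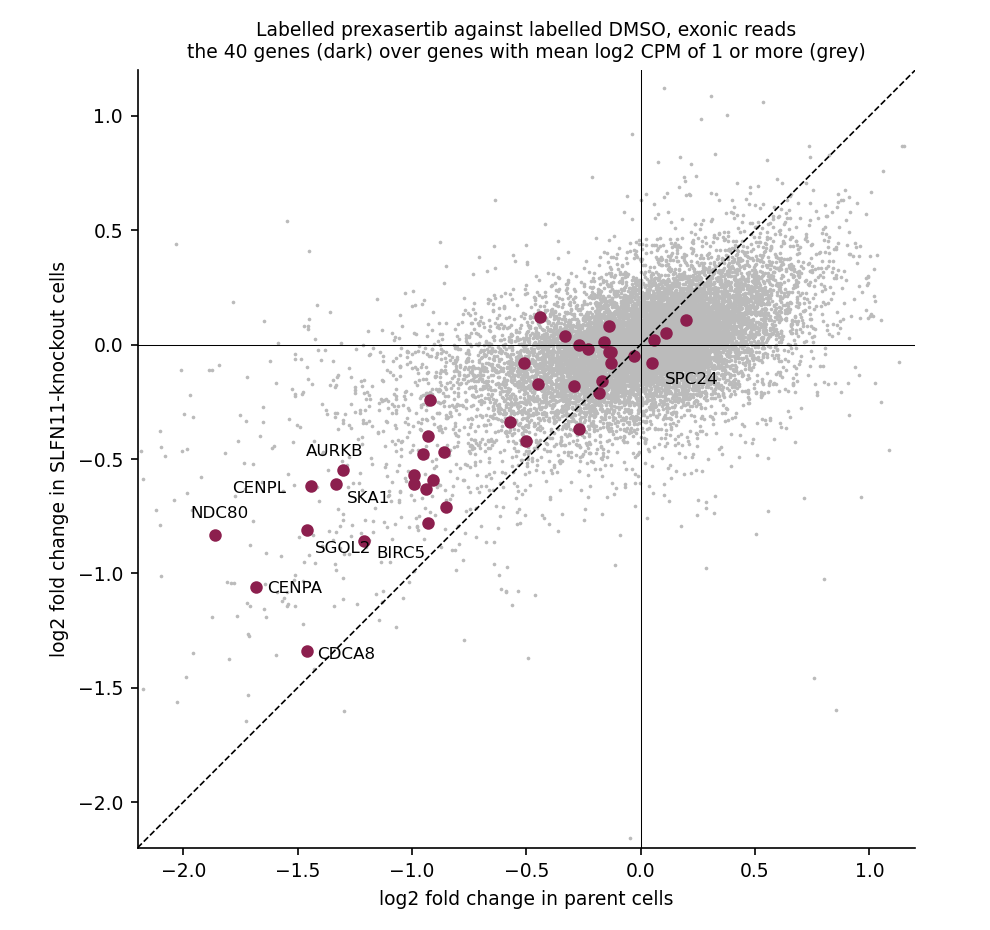
Log2 fold change of labelled prexasertib against labelled DMSO in parent cells (x axis) and in SLFN11-knockout cells (y axis), with the 40 genes as dark points and genes of mean log2 CPM 1 or more in grey, and grey points beyond the axes not drawn. The dashed line marks equal values, with CDCA8 close to it and NDC80 far to its left. Of the 40 genes, 33 have a parent value further below 0 than the knockout value. The share of all genes that do so was not computed.

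The lines were also compared under each label. Under labelled DMSO, 22 of 40 genes were lower and 6 higher in knockout cells than in parent cells (20.4% and 19.6% of all genes, median log2 difference -0.18 against -0.01, range -0.94 to 0.32). The largest were CENPL (-0.94 ± 0.06), NDC80 (-0.86 ± 0.05), SKA1 (-0.84 ± 0.07), CENPA (-0.64 ± 0.05) and AURKB (-0.63 ± 0.05). All 6 chromosomal passenger and shugoshin genes were lower. This balance depended on the scaling: on the authors' TPM, 14 of 40 were higher and 10 lower with a median of 0.10, and the median over all genes moved to 0.15. Of the 22 lower genes, 10 had the other sign on TPM, among them BUB1B, BUB3, CDCA8, CENPF and TTK, while the 5 named above as largest remained lower. SKA2 lost its call with reads outside other genes. CENPF, at -0.14, also lost its call without parent labelled DMSO replicate 3 (edgeR adjusted p = 0.093) or knockout labelled DMSO replicate 3 (0.11).

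Under labelled prexasertib, 15 of 40 genes were higher and 3 lower in knockout cells (14.5% and 13.5% of all genes, median 0.13 against -0.02, range -0.25 to 0.34). The 15 held 4 of 6 checkpoint genes, BUB1, BUB1B, MAD2L1 and TTK, with differences from 0.16 to 0.26, and 5 of 10 outer kinetochore genes. BUB1 lost its call without knockout labelled prexasertib replicate 3 (edgeR adjusted p = 0.075), and DSN1 under 5 leave-outs (0.053 to 0.15). The 3 lower genes were INCENP, SGOL1 and CENPO. On the authors' TPM, 27 were higher and 0 lower with a median of 0.27, where the median over all genes was 0.08. Without parent labelled prexasertib replicate 1, 14 were higher and 7 lower, and without knockout labelled prexasertib replicate 1 there was 1 lower, since CENPO (edgeR adjusted p = 0.093) and SGOL1 (0.072) lost their calls. Both comparisons of the lines share libraries with the treatment comparisons.

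CENPH, CENPK, CENPW, SPC24, PMF1 and MAD2L1 were higher in knockout cells under both labels, and CENPO, INCENP and SGOL1 were lower under both. Beside these 6 of 40, 19.6% of all genes were called higher under labelled DMSO and 14.5% under labelled prexasertib. Beside the 3 of 40, 20.4% and 13.5% of all genes were called lower. The share of all genes called alike under both labels was not computed, so neither count can be set against it. On the authors' TPM CENPO had the other sign under both labels, and INCENP and SGOL1 were not called under labelled prexasertib. With exonic and intronic reads added, CENPK turned direction under labelled prexasertib, and CENPK and SPC24 were called under neither label. The values under labelled DMSO and labelled prexasertib were 0.32 ± 0.05 and 0.27 ± 0.05 for CENPH, 0.29 ± 0.06 and 0.27 ± 0.06 for CENPW, 0.28 ± 0.05 and 0.15 ± 0.05 for SPC24, and 0.21 ± 0.06 and 0.32 ± 0.06 for PMF1, with edgeR adjusted p from 2.4e-05 to 0.017. CENPQ was lower under labelled DMSO (-0.23 ± 0.09) and higher under labelled prexasertib (0.34 ± 0.09), but on TPM it was at 0.05 under labelled DMSO and not called. Both calls were lost when a library was left out (adjusted p up to 0.16 under labelled DMSO, and 0.051 without knockout labelled prexasertib replicate 3), and CENPQ had as few as 457 exonic reads in a library. MAD2L1 lost its call under labelled DMSO under 5 leave-outs (0.079 to 0.21), CENPK its calls under either label (up to 0.058 and 0.23), PMF1 its call under labelled DMSO without parent labelled DMSO replicate 1 (0.056), and SPC24 its call under labelled prexasertib without knockout labelled prexasertib replicate 1 (0.078).

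Levels per length were highest for AURKB, BUB3, CDCA8 and CENPF in parent cells labelled DMSO, with mean TPM of 146, 123, 109 and 105. They were lowest for MAD1L1, CENPT and CENPP, at 6.87, 6.84 and 1.08. Under labelled prexasertib BUB3 came before AURKB in parent cells, at 74.3 and 65.4 TPM, and ZWINT and CENPW stood next after CENPF, at 50.8 and 47.1 TPM, with CDCA8 at 44. CENPA had 59.6 and 20.5 TPM under the 2 labels. The authors' TPM differs from the TMM-scaled CPM in its scaling, and on TPM CENPH (0.24 ± 0.06 on the log2(TPM + 1) scale, limma adjusted p = 0.0054) and SPC24 (0.19 ± 0.03, 0.00076) were called higher in parent cells. CENPM, CENPO, CENPT, MAD2L1, MIS12 and SPC25 lost their calls there, as did CENPC, CENPO, MAD2L1 and SPC25 in knockout cells.

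Intronic reads, which come largely from unspliced RNA, gave a second readout tested over 19852 genes with their own scaling. In parent cells 27 of 40 genes were lower, where 15.6% of all genes were, and 3 were higher, where 3021 of the 19852 genes were. A decrease in both readouts was called for 24 of 40, against 9.96% of the 17090 genes tested in both. In knockout cells 21 were lower and 1 higher (6.15% and 5.83%), and 18 were lower in both readouts, against 3.34%. The interaction was below 0 for 15 and above 0 for none (5.82% and 4.02%). Leaving out knockout labelled prexasertib replicate 1 reduced the 15 to 8, and parent labelled DMSO replicate 3, knockout labelled DMSO replicate 1 or knockout labelled DMSO replicate 2 to 9, since BUB1B, CASC5, CDCA8, CENPL, MAD2L1, SKA2 and TTK had adjusted p from 0.051 to 0.15 in one or more of these fits.

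NDC80 was lower in both readouts, with 305, 279 and 285 intronic CPM against 120, 117 and 110 in parent cells (-1.32 ± 0.07) and 154, 163 and 170 against 110, 105 and 117 in knockout cells (-0.55 ± 0.07). The passenger complex genes had intronic values of -1.61 for CDCA8, -1.61 for BIRC5, -1.51 for AURKB and -1.07 for INCENP in parent cells, beside exonic values of -1.46, -1.21, -1.30 and -0.93. With exonic library sizes the intronic values were -1.41, -1.41, -1.31 and -0.87, so the order of the readouts turned for CDCA8 and INCENP. CDCA8, whose exonic interaction was not called, had an intronic one below 0 (-0.46 ± 0.12, edgeR adjusted p = 0.013). That intronic call was lost without knockout labelled prexasertib replicate 1 (0.052) and with exonic library sizes (-0.25, 0.15).

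CENPA stood out from these in the size of its readouts. Its intronic value was -0.68 ± 0.07 in parent cells and -0.61 ± 0.07 in knockout cells, while the exonic values were -1.68 and -1.06, and its intronic interaction was -0.07 ± 0.10 and not called. Intronic reads made up 41.7% ± 0.56 (SD, n = 3) of its reads in parent cells labelled DMSO and 62.2% ± 1.8 in those labelled prexasertib. In knockout cells they made up 52.0% ± 0.36 and 59.5% ± 1.7. Exonic decreases in parent cells were also larger than intronic ones for, among others, NDC80, SKA1 (-1.33 and -0.81), CENPL (-1.44 and -0.96), SGOL2 (-1.46 and -0.99), SGOL1 (-0.99 and -0.50) and CENPC (-0.92 and -0.52). CENPT (-0.27 and 0.23), CENPM (-0.23 and 0.31) and MAD1L1 (-0.33 and 0.72) were lower in exonic reads with intronic values above 0. Whether the readouts of a gene differ was not tested.

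SPC24 and CENPW went the other way. SPC24 had 185, 213 and 201 intronic CPM in parent cells labelled DMSO and 99.2, 139 and 136 in those labelled prexasertib, a difference of -0.68 ± 0.09 (edgeR adjusted p = 1e-05), while its exonic reads did not differ by the test. Without parent labelled prexasertib replicate 1 its intronic value was -0.54 ± 0.06. CENPW was at -0.51 ± 0.13 in intronic and -0.03 ± 0.06 in exonic reads, with as few as 193 intronic reads in a library, and in knockout cells its intronic call (-0.45, adjusted p = 0.024) was lost under 4 leave-outs (0.067 to 0.13). With exonic library sizes the parent intronic values were -0.48 for SPC24 (edgeR adjusted p = 0.00035) and -0.30 for CENPW (0.073, not called). ZWILCH was called lower in intronic reads of parent cells (-0.29, adjusted p = 0.031) and lost that call under 3 leave-outs (0.057 to 0.16) and with exonic library sizes (0.52).

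The genes higher in intronic reads of parent cells were MAD1L1, CENPK and CENPP. MAD1L1 had 99.3, 100.4 and 91.8 intronic CPM labelled DMSO and 238, 121 and 120 labelled prexasertib, so replicate 1 stood far above the others. Its value was 0.72 ± 0.24 (edgeR adjusted p = 0.047) with that library and 0.31 ± 0.07 (0.00041) without it, and it was lost under each leave-out of a parent library labelled DMSO (0.099 to 0.11). CENPK, at 0.25, was lost without that same replicate 1 (0.09, adjusted p = 0.31) and without parent labelled DMSO replicates 2 (0.11) or 3 (0.16), and CENPP, at 0.19, without parent labelled DMSO replicate 2 (0.07). SKA3 was higher in intronic reads of knockout cells, at 84.3, 77.4 and 77.8 against 106, 104 and 115 CPM (0.44 ± 0.08, adjusted p = 0.00036), and lower in those of parent cells (-0.26 ± 0.08), the latter not called with exonic library sizes (-0.06).

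**Figure D5:**
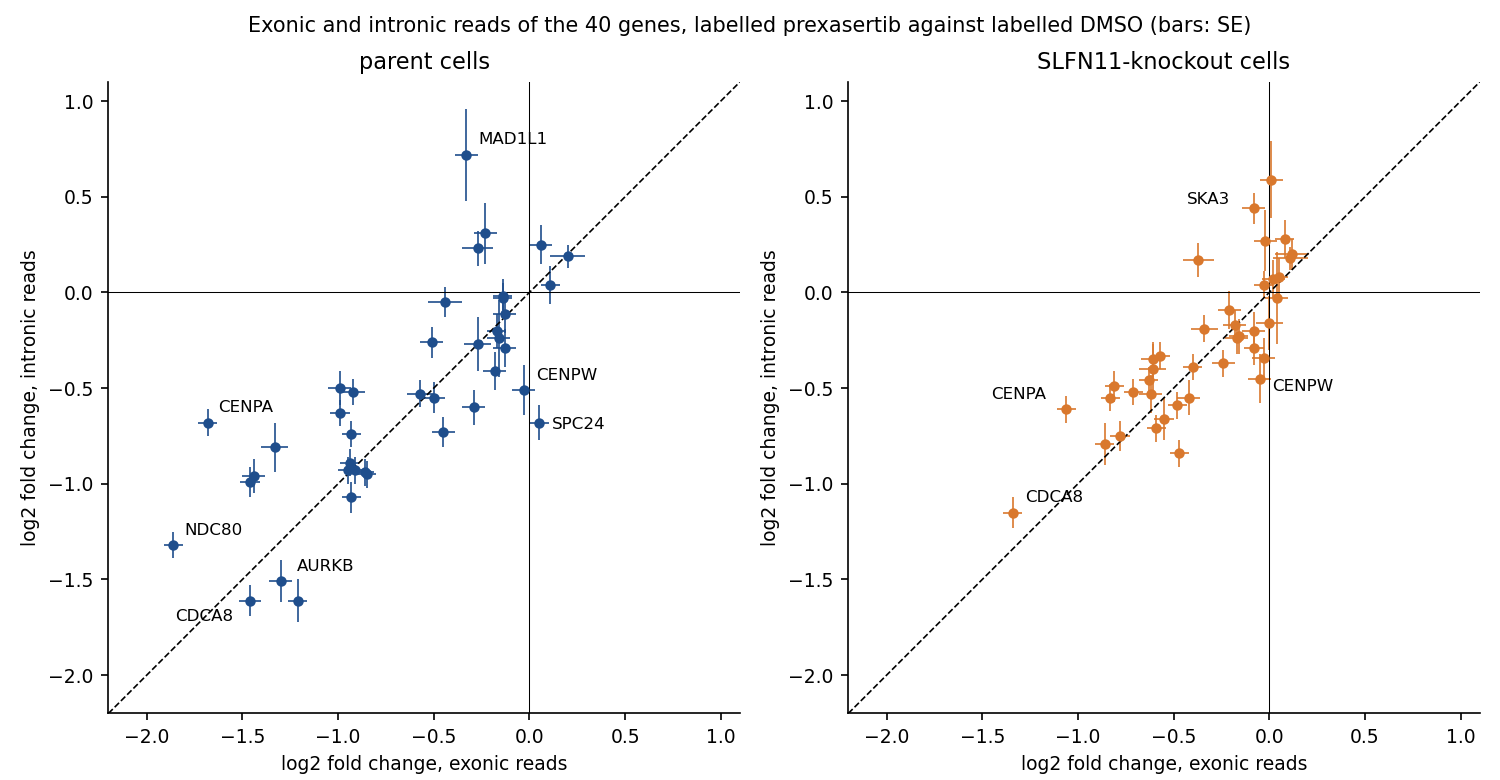
Log2 fold change of exonic reads (x axis) and intronic reads (y axis) of the 40 genes between labelled prexasertib and labelled DMSO, in parent cells (left) and SLFN11-knockout cells (right), with standard errors as bars and a dashed line at equal values. CENPA and NDC80 lie above the line, with exonic decreases larger than intronic ones, and SPC24 and CENPW lie below it near an exonic value of 0.

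Between the lines, intronic reads under labelled DMSO were lower in knockout cells for 24 of 40 genes and higher for 1. Over all 19852 genes, 3186 were lower and 2820 higher. With exonic library sizes 14 of the 40 were lower, where 2013 of all genes were. The 24 lower genes held NDC80 (-0.84 ± 0.07), AURKB (-0.69 ± 0.11), CDCA8 (-0.68 ± 0.08), SGOL2 (-0.64 ± 0.08) and CENPL (-0.62 ± 0.09), chosen after their values were seen as the 5 largest. Under labelled prexasertib 1 of 40 genes was lower (SGOL1) and 2 were higher (SKA3 and MAD2L1), where 9.16% and 9.62% of all genes were. MAD2L1 lost that call under each leave-out of a library labelled prexasertib (edgeR adjusted p 0.051 to 0.18), and SGOL1 without knockout labelled prexasertib replicate 3 (0.051). With the exonic library sizes 5 were lower and 0 higher under labelled prexasertib, where 2192 and 966 of all 19852 genes were. With them 4 interactions lay below 0 in place of 15, while over all genes 392 did in place of 1155. That scaling moved the median of all genes by 0.21 in parent cells, by 0.22 in the interaction and by -0.13 between the lines under labelled prexasertib.

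Promoter windows of 300 bases, from 250 before to 50 after the start, were at hand for 33 of the 40 genes, in 39 windows, with SGOL1 and SGOL2 matched as SGO1 and SGO2. CENPH, CENPL, CENPM, CASC5, BUB3, TTK and BIRC5 had no entry. The CHR element was found in 18 of 33 genes (54.5%), against 19.5% of 27305 genes in the table, and in 48.7% of the windows against 16.4% of 35116. In 17 genes it lay within 50 bases before the start or after it. Counted by window rather than by gene, 5.01% of all windows held a match there, and the share of all genes was not computed. The CCAAT box, the other element often found in such promoters, searched on both strands as CCAAT, was found in 22 of 33 genes (66.7%) against 39.7% of all genes. The elements shared a base in 1 of the genes' windows and in 45 of all windows.

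The 18 genes with a CHR match were CENPA, CENPC, CENPN, CENPO, CENPW, NDC80, NUF2, SPC25, ZWINT, SKA1, SKA3, CENPF, BUB1, BUB1B, MAD2L1, INCENP, CDCA8 and SGOL1. Of these, 16 were lower in parent cells (18.2% of all genes), with a median log2 fold change of -0.92 there and -0.49 in knockout cells. Of the 15 without a match, 8 were lower, with medians of -0.27 and -0.03. Exceptions ran both ways: CENPW and ZWINT had a match and were not called, and AURKB and SGOL2 had none and were at least 2-fold lower. With a CCAAT box the parent median was -0.45 and without it -0.50. These matches describe letters in a window and are not binding sites, and no test was made.

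The wider machinery was given by lists of genes that are not among the 40. Of 28 other kinetochore and centromere genes, 16 were lower and 5 higher in parent cells (18.2% and 18.2% of all genes), and 13 and 4 in knockout cells (6.83% and 6.11%). CENPE, the kinetochore motor that carries chromosomes to the plate, had 669, 607 and 633 against 156, 167 and 169 CPM in parent cells and 389, 381 and 380 against 146, 148 and 158 in knockout cells (-1.96 ± 0.05 and -1.35 ± 0.05). HJURP, the chaperone that loads CENPA, had 334, 341 and 340 against 103, 105 and 105, and 169, 171 and 172 against 99.8, 98.7 and 102 (-1.70 ± 0.05 and -0.77 ± 0.05), and its knockout libraries lay just below the parent ones under labelled prexasertib. The microtubule depolymerase KIF2C (-1.64 and -0.91), the plus-end motor KIF18A (-1.72 and -1.13), the dynein adaptor SPDL1 (-1.27 and -0.84) and the spindle-associated KNSTRN (-1.14 and -0.95) were lower in both lines.

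Of 23 genes of the anaphase-promoting complex and checkpoint targets, 11 were lower and 3 higher in parent cells (18.2% and 18.2% of all genes). In knockout cells 10 were lower and 0 higher (6.83% and 6.11%). The 3 higher in parent cells are near the share of all genes. Of 20 cohesin and condensin genes, 10 were lower and 5 higher in parent cells (18.2% and 18.2% of all genes). In knockout cells 5 were lower and 4 higher (6.83% and 6.11%). The 5 higher in parent cells are near the share of all genes. DNA replication genes, which are transcribed mainly in late G1 and S phase, went the other way. In parent cells 19 of 42 were higher and 3 lower (median 0.14), where 18.2% of all genes were higher and 18.2% lower. In knockout cells 16 were higher and 0 lower (median 0.11), where 6.11% and 6.83% of all genes were. Of 16 regulators of G2/M transcription, 8 were lower and 3 higher in parent cells (18.2% and 18.2% of all genes), and 1 and 1 in knockout cells (6.83% and 6.11%), and the counts other than the 8 are near these shares. Among them CDKN1A, the CDK inhibitor p21, had 14.96, 15.19 and 14.97 against 1.95, 2.05 and 2.06 CPM in parent cells (-2.90 ± 0.10) and 6.63, 6.86 and 6.89 against 6.70, 6.59 and 6.36 in knockout cells, where it was not called. The part of these levels in the values of the 40 genes was not tested.

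Exonic reads summed to 47887791 to 77548202 per library, and the 40 genes had from 457 (CENPQ) to 85065 (CENPF) each. SLFN11 itself (chr17:33677324-33700720, hg19) had 91.2 to 100.4 CPM in parent cells labelled DMSO, 65.9 to 69.1 in knockout cells labelled DMSO, 117 to 119 and 85.0 to 90.7 under labelled prexasertib, and was lower in knockout cells by 0.51 and 0.41, so its RNA stayed present there. T lymphoblast markers were present, 14 of 14 at a mean of at least 1 CPM with 1920 to 2530 CPM in sum, against 2 of 10 B-cell and myeloid markers (CD79A and CD79B, 26.8 to 44.8 CPM in sum), and 1 of 10 epithelial, fibroblast and erythroid markers (EPCAM, 1.92 to 11.5). Parent labelled prexasertib replicate 1 stood apart, with 30.27% intronic reads against 23.93 to 26.37% in the others and a chi-square per degree of freedom of 33.51 and 29.12 against its replicates, where other pairs had 4.29 to 13.42. Without it, 31 of 40 genes were lower and 1 higher in parent cells (CENPH, 0.14, edgeR adjusted p = 0.023) with a median of -0.50, and 22 had an interaction below 0. NDC80 was then at -1.85 and its interaction at -1.02.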

How the data were processed

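RNA was sequenced from 12 libraries in 4 groups. Each deposited file gives per gene exonic and intronic read counts, reads outside other genes, and TPM as the authors computed them, per the file headers. Trim Galore 0.6.2, Trimmomatic 0.39, STAR 2.5.4a, Picard 2.9.2 and hg19 are named in the submitters' processing notes. The counter, annotation and strand setting are not given in the sources used here, so antisense partners cannot be told apart. Genes absent from a file were taken as 0, and 36 Y pseudoautosomal copies were left out of 44183 features. Coordinates had 1 added to start and end.

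The main test used edgeR 4.0.16 under R 4.3.3 on exonic counts (filterByExpr minimum count 10, TMM factors, 4 group means over 12 libraries, robust quasi-likelihood F test) of 23045 genes, with Benjamini-Hochberg adjustment over all. Intronic counts were tested likewise on 19852 genes. CPM uses TMM-scaled library sizes. SE comes from the fit, and 95% intervals from the SE. Alternatives were DESeq2 1.42.0, limma 3.58.1 on log2(TPM + 1), other filters, other read classes, a replicate block and leaving out each library. The tests were run on simulated counts with known changes. Of 1.25-fold changes, 14% were called for the interaction and 36 to 56% in the other comparisons. Of 2-fold changes, 88% and 94 to 98% were called. Small differences, above all small interactions, can therefore go uncalled.

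The 40 genes and the other lists were chosen with earlier results of these data known. By rule, values in every library are given for the gene of each role with the smallest p in the parent comparison and in the interaction, the 5 called genes with the largest difference in each of 5 comparisons, and genes called in neither line. Other kinetochore genes and regulators are named when called with a difference of at least 1 on the log2 scale, except 1 gene that is not reported here. Library values of NUF2, CASC5, MIS12 and MAD1L1, and intronic values, were added after they were seen.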

Additional observations from a re-analysis of the deposited data

Results flagged for a closer look

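The following results stood out because the difference between labelled prexasertib and labelled DMSO itself differed between the lines, by the interaction test of edgeR over all genes (parent less knockout, log2). Among the 40 genes the values were -1.03 for NDC80, -0.82 for CENPL, -0.75 for AURKB, -0.72 for SKA1, -0.68 for CENPC, -0.66 for SGOL2, -0.62 for CENPA, -0.57 for CENPQ and -0.53 for BUB1B. Smaller values were -0.47 for CASC5, -0.44 for SKA3, -0.42 for TTK, -0.40 for BUB3, -0.38 for MAD1L1, -0.38 for SGOL1, -0.35 for BIRC5, -0.32 for CENPF, -0.31 for NUF2 and -0.29 for CENPN. Among the other genes named they were -2.85 for CDKN1A, -0.92 for HJURP, -0.73 for KIF2C, -0.61 for CENPE, -0.59 for KIF18A and -0.43 for SPDL1. All lay below 0 in this fit. On the authors' TPM the calls of CENPF, CENPN, CENPQ, MAD1L1, NUF2, SGOL1 and SPDL1 were lost (limma), and with exonic and intronic reads added MAD1L1 was at 0.33 and not called.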

How the results depend on the processing

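The 24 genes lower in both lines include some near the threshold, and precision is limited by 3 libraries a group and by low counts (457 exonic reads at the lowest). The cause of the changes below was not tested.

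On the authors' TPM, parent cells had 2 genes higher with a median of -0.34, the interaction 1 above 0 with a median of -0.12, labelled DMSO between lines 14 higher, 10 lower and a median of 0.10, and labelled prexasertib 27 higher, 0 lower and 0.27. Over all genes TPM gave 6365 higher and 2487 lower in parent cells, 9162 and 1822 between lines under labelled DMSO, 6339 and 1314 under labelled prexasertib, and 2878 and 1104 for the interaction. The medians over all genes were 0.09, 0.15, 0.08 and 0.08, in that order. With exonic and intronic reads added, parent cells had 1 higher, the knockout median was -0.25 and the median between lines under labelled DMSO -0.21. With reads outside other genes these medians were -0.39 and -0.21, and among genes averaging 1 CPM or more the latter was -0.21. DESeq2 ended no call in these comparisons.

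For intronic reads, exonic library sizes gave 5 higher in parent cells, 4 interactions below 0 and 14 lower under labelled DMSO. Over all 19852 genes these counts were 5626, 392 and 2013. Under labelled prexasertib 0 were higher and 5 lower, where 966 and 2192 of all genes were. Reads outside other genes, an alternative chosen after seeing the data, gave 1 higher in parent cells and 3 higher in knockout cells. They gave 0 higher under labelled DMSO and 2 lower under labelled prexasertib. Over all 15663 genes tested these counts were 2515, 985, 2359 and 1463, in that order.

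With the replicate block, 32 genes were lower in parent cells, 24 in knockout cells, 20 interactions were below 0, and 3 intronic genes were higher in knockout cells. Deviations of same-numbered libraries from their group means correlated at -0.15 to 0.18 with mixed signs. With so few libraries a group, these values cannot tell whether same-numbered libraries shared a culture. The block ended no exonic call.

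Leaving out each library in turn gave 0 to 1 higher and 29 to 34 lower in parent cells (median -0.57 to -0.50), 20 to 23 lower in knockout cells (-0.30 to -0.27), 18 to 23 interactions below 0 (-0.33 to -0.21), 4 to 5 higher and 20 to 25 lower between lines under labelled DMSO (-0.21 to -0.17), and 11 to 18 higher and 1 to 7 lower under labelled prexasertib (0.08 to 0.16). Intronic ranges were 1 to 4 higher and 26 to 28 lower in parent cells, 18 to 19 lower in knockout cells, 0 to 1 above and 8 to 20 below 0 for the interaction, 0 to 1 higher and 19 to 22 lower under labelled DMSO, and 1 to 2 higher and 0 to 4 lower under labelled prexasertib.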
